A study of Mus musculus with 6 samples.

Results

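Ide, the gene of insulin-degrading enzyme, and 5 genes that lie near it on mouse chromosome 19 were followed in the aged hippocampus. The genes are Fgfbp3, Btaf1, Cpeb3, Marchf5, Ide and Exoc6, in that order along the chromosome, and all 6 are among the 16703 genes of the deposited table. They were taken by name, and the set was chosen with the age difference of these genes already known, so their values are given as a description, without p-values. The RNA-seq compared hippocampi of 3 aged mice (20 months old) with those of 3 young mice (3 months old), with 1 library per mouse. All 6 mice were C57BL/6 males, and the labels give neither the substrain nor the colony of either age group. The methods state that the sequenced animals had been selected from a prior qPCR assay, without naming the criterion. The paper reports qRT-PCR of known ageing genes, with Neat1, C4b and Trem2 higher and Cldn2 lower in aged hippocampi. Whether that was the selecting assay is not stated.

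Insulin-degrading enzyme is a zinc metallopeptidase that cuts insulin, amyloid-beta and other small peptides, and in the brain it is known as one of the enzymes that clear amyloid-beta. The genes beside it have unrelated functions. Fgfbp3 encodes a secreted protein that binds fibroblast growth factors, and Btaf1 an ATPase that removes the TATA-binding protein from DNA. Cpeb3 encodes an RNA-binding protein that controls the translation of synaptic mRNAs, Marchf5 a ubiquitin ligase of the mitochondrial outer membrane, and Exoc6 a subunit of the exocyst, which tethers secretory vesicles to the plasma membrane. A segment of chromosome 19 that holds Ide and Fgfbp3 is known to differ in copy number among mice of C57BL/6J colonies. Genomic DNA was not measured here, so the number of gene copies and the RNA made per copy cannot be told apart.

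Ide, Fgfbp3 and Btaf1 had lower RNA levels in every aged library than in any young library, whereas Cpeb3, Marchf5 and Exoc6 did not. Levels are in CPM, counts scaled to a common library total and not corrected for gene length, so they are compared between libraries and not between genes. Differences are aged minus young on the log2 CPM scale, from a linear model fitted with limma to all 16703 genes.

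Ide (ENSMUSG00000056999.17) had 38.9, 49.2 and 45.1 CPM in the aged libraries, against 86.4, 88.9 and 86.4 CPM in the young libraries. The means were 44.4 ± 5.17 CPM in aged mice and 87.2 ± 1.48 CPM in young mice (SD, n = 3 each). The groups lay far apart, with the aged libraries at 44.6%, 56.4% and 51.7% of the young mean. The log2 difference was -0.98 (SE 0.08), which puts the aged level at 50.7% of the young one. These levels rest on 617, 861 and 767 adjusted reads in the aged libraries and on 1314, 1360 and 1328 in the young ones. On the log2 scale the aged libraries varied more than the young libraries, with SDs of 0.17 and 0.02. Of 15757 genes averaging 1 CPM or more, 50 had a lower log2 difference than Ide.

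Fgfbp3 (ENSMUSG00000047632.12) had 8.05, 6.68 and 6.93 CPM in the aged libraries and 13.4, 12.4 and 10.8 CPM in the young libraries. Its means were 7.22 ± 0.728 CPM in aged mice and 12.2 ± 1.32 CPM in young mice (SD, n = 3 each). The groups did not overlap, but Fgfbp3 was the most thinly covered of the 6 genes, with 115 to 126 adjusted reads in the aged libraries and 164 to 202 in the young ones. Its log2 difference was -0.76 (SE 0.14), an aged level of 59.3% of the young one.

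Btaf1 (ENSMUSG00000040565.9) had 34.4, 37.6 and 37.2 CPM in the aged libraries, against 48.6, 53.7 and 50.9 CPM in the young libraries. Its means were 36.4 ± 1.74 CPM in aged mice and 51.1 ± 2.60 CPM in young mice (SD, n = 3 each). The highest aged library was well below the lowest young one. The log2 difference of -0.49 (SE 0.07) corresponds to an aged level of 71.2% of the young one.

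The genes that lie between Btaf1 and Ide, Cpeb3 and Marchf5, showed no such gap. Cpeb3 (ENSMUSG00000039652.17) had 64.7, 69.5 and 65.7 CPM in the aged libraries and 65.4, 60.7 and 70.6 CPM in the young libraries. Marchf5 (ENSMUSG00000023307.15) had 66.2, 67.0 and 67.4 CPM in the aged libraries and 66.7, 68.0 and 65.5 CPM in the young libraries. Aged and young values of both genes were interleaved, with log2 differences of 0.03 (SE 0.07) for Cpeb3 and 0.00 (SE 0.06) for Marchf5. Exoc6 (ENSMUSG00000053799.9), on the far side of Ide, had 46.6, 47.5 and 48.8 CPM in the aged libraries and 48.4, 54.7 and 51.3 CPM in the young libraries. Its groups overlapped, since the highest aged library was above the lowest young one, and its log2 difference was -0.11 (SE 0.07).

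**Figure D1:**
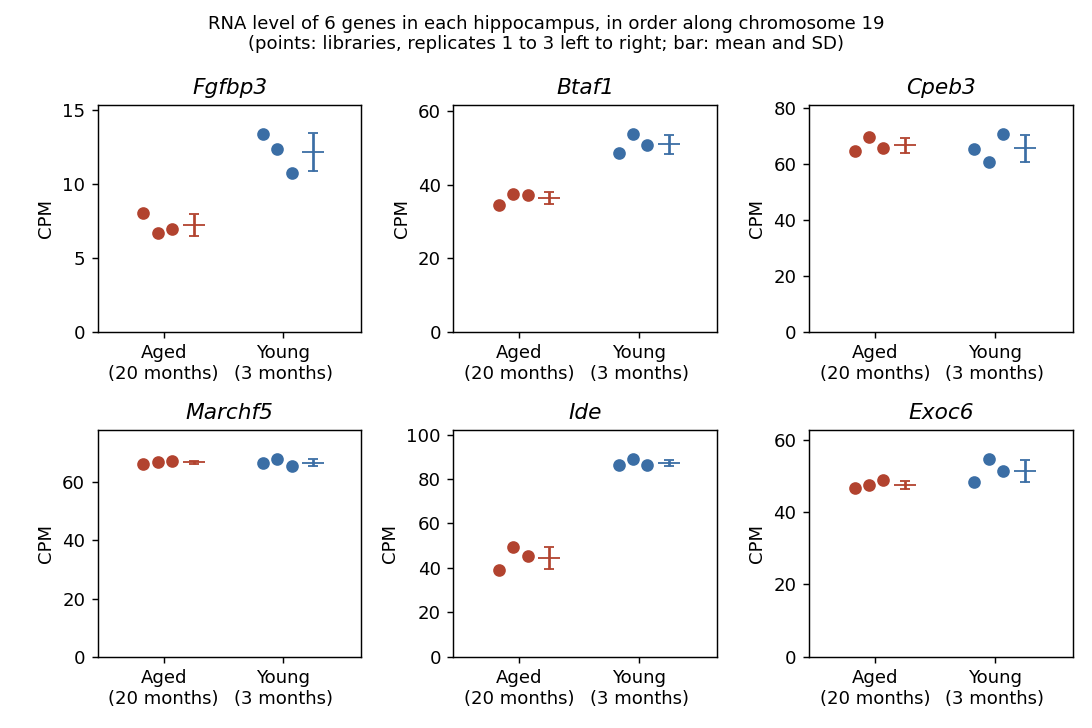
CPM of each gene in every library, with genes in chromosomal order, aged mice left and young mice right of each panel, axes from 0, and the mean and SD beside the points (n = 3 each). Ide, Fgfbp3 and Btaf1 are separated by age, with means of 44.4 and 87.2 CPM for Ide in aged and young mice, while the points of Cpeb3, Marchf5 and Exoc6 overlap.

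In the whole table, 331 genes (1.98%) passed a false discovery rate (FDR) of 0.05 in limma, 200 of them higher and 131 (0.784%) lower in aged mice. Ide, Fgfbp3 and Btaf1 were the 3 of 6 genes that passed, all lower. All aged libraries lay below all young libraries for 2125 genes (12.7%), and the groups were apart in either direction for 4546 genes (27.2%). The selection used this contrast, so nothing is read from the members' count. The same holds for which members pass in the alternative fits, given here only as a description. Fgfbp3 no longer passed when Aged replicate 2, Aged replicate 3 or Young replicate 1 was left out, which left 2 of the 6 genes. With a prior variance that does not follow the expression level, 0 of the 6 genes and 0 of all genes passed in limma. In that fit 1881 of all genes were at an unadjusted p under 0.05.

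**Figure D2:**
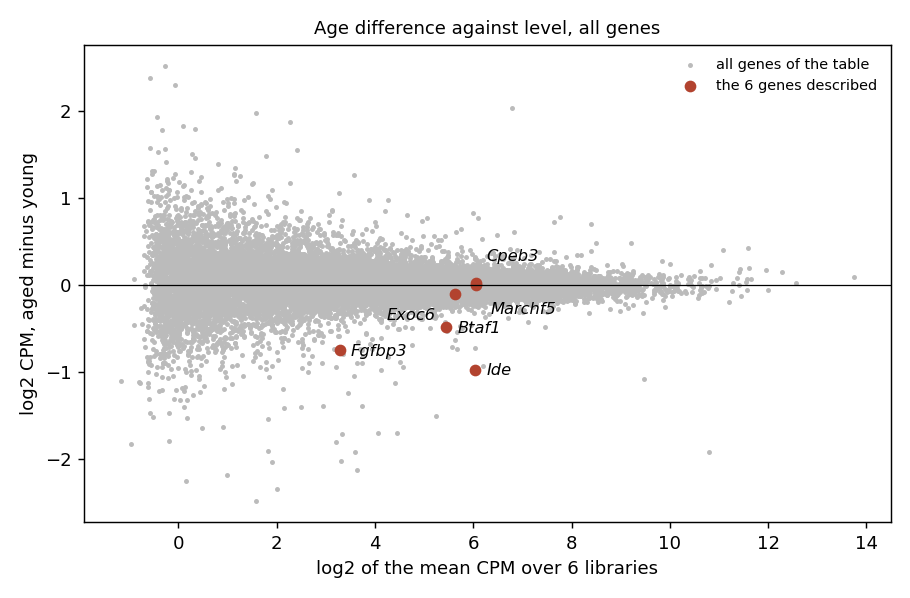
Log2 difference (aged minus young, log2 CPM) of each of the 16703 genes against the log2 of its mean CPM, with the 6 genes of the chromosome 19 group in red. Ide (-0.98) and Btaf1 (-0.49) are at the lower edge of genes of like level, and Cpeb3, Marchf5 and Exoc6 are within the bulk.

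The order and strand of the genes were taken from the GENCODE annotation of GRCm38, whereas the authors counted on mm39, so no distances are given. Fgfbp3 and Btaf1 are next to each other and are transcribed away from each other, from the minus and the plus strand. Cpeb3 (minus) and Marchf5 (plus) are also divergent, and their annotated gene models overlap. Ide (minus) is the next measured gene, then Kif11, Hhex and Exoc6, all on the plus strand. The genes with lower aged levels were therefore not a single unbroken run, since Cpeb3 and Marchf5 stand between Btaf1 and Ide. The library kit keeps strand, but the strand setting of the counting is not given in the sources used here. Reads of Cpeb3 and Marchf5 from their shared stretch are for that reason uncertain, as are those of Cpeb3 and A330032B11Rik, an antisense transcript inside it. A processed pseudogene of a ribosomal protein gene, Rpl10-ps6, lies within Ide on the same strand and is not among the genes of the table.

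Of 74 genes annotated within 2 Mb of Ide on either side, 27 were in the table, and 21 of these were not among the 6 genes. Of these 21, 0 passed FDR 0.05 in limma, against 1.98% of all genes. In the same fit 4 (Kif11, Hectd2, Ppp1r3c and A330032B11Rik) had an unadjusted p under 0.05, against 2485 of all 16703 genes. The 21 had a median log2 difference of 0.02, close to the 0.00 of all genes. The aged and young libraries did not overlap for 4 of the 21, against 27.2% of all genes. Of the 4, 2 were lower (Kif11 and Noc3l) and 2 higher (Htr7 and Ppp1r3c) in aged mice. Tnks2, which encodes a tankyrase and is the measured gene on the other side of Fgfbp3, had a log2 difference of -0.07 (adjusted p = 0.543 in limma).

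Kif11, a mitotic kinesin gene and the measured neighbour of Ide away from Marchf5, was singled out after its values were seen. It had 0.942, 1.66 and 1.30 CPM in the aged libraries and 3.14, 2.35 and 1.75 CPM in the young libraries. The groups came close without overlapping at these low levels, and the log2 difference of -0.89 (SE 0.31) did not pass the threshold (adjusted p = 0.183 in limma). Hhex, a homeobox gene between Kif11 and Exoc6, had a log2 difference of 0.22 (SE 0.32). Among the 13 other window genes averaging 4 CPM or more, a floor set after the values were seen, log2 differences ran from -0.29 for Myof to 0.24 for Htr7. Ide, Fgfbp3 and Btaf1, chosen with their differences known, were each below this range. Without the floor, the 21 window genes ran from -0.89 for Kif11 to 1.07 for A330032B11Rik. Ide (-0.98) was below that wider range, and Fgfbp3 and Btaf1 were within it.

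**Figure D3:**
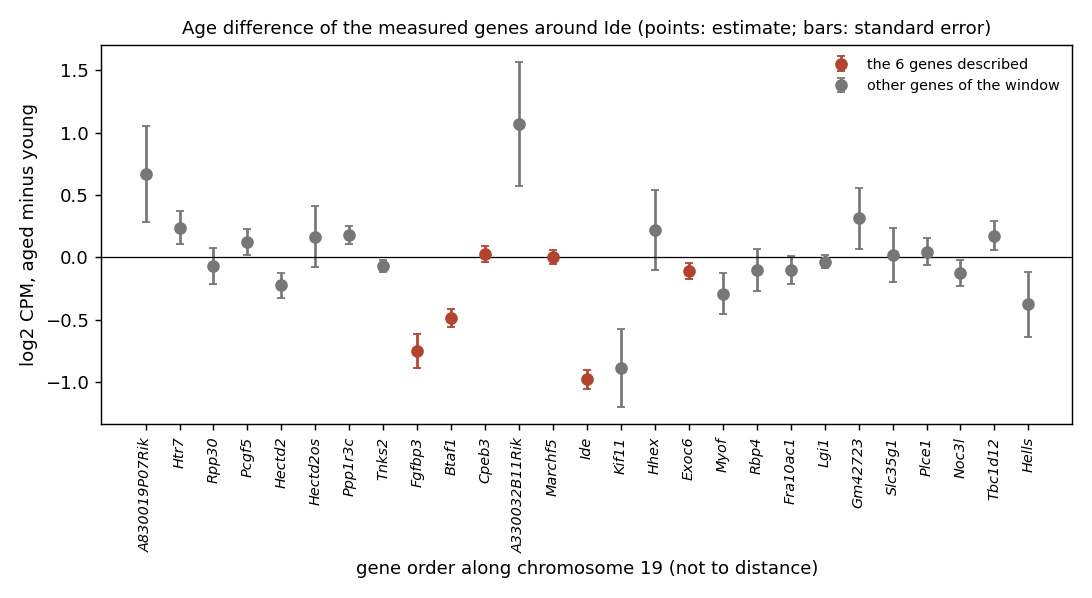
Log2 difference (aged minus young, log2 CPM) with its standard error for the 27 measured genes of the window, in chromosomal order at equal spacing, with the 6 genes of the group in red and the other 21 in grey. Ide, Fgfbp3 and Btaf1 are below 0 by several standard errors, with Cpeb3 and Marchf5 near 0 between them, while the low genes Kif11 and A330032B11Rik have wide bars.

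The sequence before each gene's start is shown for the 3 genes whose groups were apart and for Marchf5, whose groups were not, because the 3 lay below the young libraries together and Marchf5 stands between them. RefSeq (GRCm38.p6) gave 9 windows of 300 bases for the 6 genes, 250 before to 50 after a start, out of 32851 windows in all. Short motifs were searched on both strands: the GC box GGGCGG, the TATA box TATAAA, the CCAAT box CCAAT, the core TGACG of the cAMP response element, and the E-box CACGTG. Each window is written 5′ to 3′ on the strand of its gene, capitals mark every match, and a match is a description of these letters only.
Fgfbp3, chr19:36919550-36919849, minus strand: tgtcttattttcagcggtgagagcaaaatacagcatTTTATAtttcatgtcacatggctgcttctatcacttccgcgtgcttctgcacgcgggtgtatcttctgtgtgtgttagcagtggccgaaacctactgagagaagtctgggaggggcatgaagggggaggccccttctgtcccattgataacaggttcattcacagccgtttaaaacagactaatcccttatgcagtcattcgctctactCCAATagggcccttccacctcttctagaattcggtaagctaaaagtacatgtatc
Btaf1, chr19:36925829-36926128, plus strand: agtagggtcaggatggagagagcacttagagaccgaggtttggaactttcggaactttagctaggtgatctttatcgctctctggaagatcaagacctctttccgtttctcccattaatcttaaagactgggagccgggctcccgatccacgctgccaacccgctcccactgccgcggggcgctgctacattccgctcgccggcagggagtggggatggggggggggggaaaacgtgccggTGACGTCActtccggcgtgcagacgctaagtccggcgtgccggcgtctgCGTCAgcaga
Ide, chr19:37334495-37334794, minus strand: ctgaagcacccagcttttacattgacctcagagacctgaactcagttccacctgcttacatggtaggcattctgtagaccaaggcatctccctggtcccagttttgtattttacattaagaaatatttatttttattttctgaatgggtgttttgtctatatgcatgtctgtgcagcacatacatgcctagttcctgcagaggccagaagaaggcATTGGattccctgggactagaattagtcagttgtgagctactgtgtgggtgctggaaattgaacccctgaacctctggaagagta
Marchf5, chr19:37207290-37207589, plus strand: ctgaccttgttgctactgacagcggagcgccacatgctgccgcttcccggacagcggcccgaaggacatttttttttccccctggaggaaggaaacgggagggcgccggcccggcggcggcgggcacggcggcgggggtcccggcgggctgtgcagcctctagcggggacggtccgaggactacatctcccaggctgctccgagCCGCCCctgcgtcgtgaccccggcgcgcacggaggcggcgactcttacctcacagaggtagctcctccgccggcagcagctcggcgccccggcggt

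No searched motif was in the windows of all 3 genes with lower aged levels, though those of Fgfbp3 and Ide both held a CCAAT box. That of Fgfbp3 was 46.7% GC with 9 CpG. Its match to the TATA box, found in 13.6% of all windows, was TTTATA on the other strand, far from the start. A CCAAT box, found in 37.4%, lay just before the start in this window. That of Btaf1 was 60% GC with 25 CpG and held the core TGACG, found in 20.8% of all windows, in a palindrome where the matches of both strands overlap and once more nearer the end. That of Ide was 44.0% GC with 0 CpG and held a CCAAT box alone. None of the 5 GENCODE transcripts of Ide starts within 100 bases of the start that RefSeq gives here, so this window is not at a start of that annotation. The Marchf5 window was 71.7% GC with 37 CpG and held a GC box, found in 35.7% of all windows. It shares 168 bases with the first window of Cpeb3, which was 77.7% GC with 42 CpG. A GC box was also in the Exoc6 window (74.0% GC, 30 CpG) and in some but not all of the Cpeb3 windows. The windows of Ide, Fgfbp3 and Btaf1 had none. These genes were chosen on their values, so nothing is read from that split. An E-box was in none of the 9 windows. All windows had a median of 52.7% GC and 7 CpG.

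Within the aged group, Ide and Btaf1 had the same order of libraries (lowest in replicate 1, highest in replicate 2), and Fgfbp3 had the reverse order. The root mean square difference between log2 CPM profiles, each centred on its own mean over the 6 libraries, was used to name the genes with the pattern most like that of Ide. Among the other genes averaging 1 CPM or more, these were Pcdh18 (0.09), a protocadherin gene, Tacr3 (0.11), the receptor gene of neurokinin B, Igfn1 (0.11), Trpv6 (0.12), a calcium channel gene, and Rrm2 (0.13), a subunit gene of ribonucleotide reductase. All were at low levels, with aged means of 0.776 to 2.40 CPM and young means of 1.61 to 4.44 CPM. Fgfbp3 was at 0.23 from Ide, the place 54 in this order, and Btaf1 at 0.25, the place 77. For Fgfbp3 the nearest genes were Pcolce (0.05), which encodes an enhancer of procollagen processing, Dynlt4 (0.07), Mycbpap (0.08), 9530059O14Rik (0.08) and Gmnc (0.09), a gene of multiciliated cell differentiation. Likeness over 6 libraries is a description, and these genes share the same libraries.

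Genes with related functions were set beside each member, in 9 lists that name 95 genes, of which 92 were in the table. In limma 2 of the 92 passed FDR 0.05, both higher in aged mice, against 1.98% of all genes, and the median log2 difference of the 92 was -0.02, against 0.00 for all genes. When every library was set to a common median, 1 of the 2 passed.

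Among 16 measured peptidase genes listed for a link to amyloid-beta or insulin, 0 passed, with a median log2 difference of -0.08. Plat, the gene of tissue plasminogen activator, had 32.2 ± 0.828 CPM in aged mice and 39.2 ± 1.90 CPM in young mice, a log2 difference of -0.28 (adjusted p = 0.0560 in limma). Ace, the gene of angiotensin-converting enzyme, had 38.4 ± 5.57 CPM in aged mice and 60.9 ± 17.4 CPM in young mice, a log2 difference of -0.63 (adjusted p = 0.0594 in limma). Neither passed the threshold. The 6 relatives of Ide in the M16 peptidase family ran from -0.08 for Pitrm1, a mitochondrial peptidase, to -0.01, with Uqcrc2, a core subunit of respiratory complex III, at -0.03, and 0 passed.

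Among 17 measured genes for substrates of the enzyme and for the insulin receptor pathway, 1 passed. Sst encodes somatostatin, an inhibitory neuropeptide that insulin-degrading enzyme can cleave. It had 255.1, 269.7 and 261.2 CPM in the aged libraries, against 213.1, 200.7 and 217.0 CPM in the young libraries. Every aged library was above every young one, and the log2 difference was 0.32 (SE 0.05, adjusted p = 0.00182 in limma). Igf2, an insulin-like growth factor, had 1.7 ± 0.277 CPM in aged mice and 2.78 ± 0.419 CPM in young mice, a log2 difference of -0.71 that did not pass (adjusted p = 0.189 in limma).

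Of 15 fibroblast growth factors, receptors and binding proteins, listed beside Fgfbp3, 0 passed. Fgfr1 was at -0.19 (adjusted p = 0.134 in limma) and Fgfr2 at 0.20 (adjusted p = 0.267 in limma). Of 11 genes of the TATA-binding protein and its regulators, the setting in which the Btaf1 product acts, 1 passed. Drap1 encodes a subunit of negative cofactor 2, which represses transcription through the TATA-binding protein. It had 162.7, 141.7 and 149.1 CPM in the aged libraries, against 128.9, 128.8 and 128.3 CPM in the young libraries. The log2 difference was 0.23 (SE 0.05, adjusted p = 0.0401 in limma), and the gene did not pass when any single library but Aged replicate 2 was left out, with adjusted p-values from 0.0537 to 0.204 in limma. Taf1, a TFIID subunit, was at -0.18 (adjusted p = 0.140 in limma).

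The families of the other 3 genes also had 0 genes past the threshold. The other CPEB genes were at 0.10 for Cpeb1, 0.07 for Cpeb4 and 0.07 for Cpeb2. Of 10 membrane MARCH ligases, Marchf4 was at -0.32 (adjusted p = 0.0518 in limma) and Marchf2 at 0.12. Of 8 mitochondrial fission and fusion genes, Fis1, an outer membrane adaptor, was at 0.12 and Mfn2, a mitofusin, at -0.07. The other 8 exocyst subunits were between -0.11 for Exoc8 and 0.00, with Exoc4 at -0.08, and the -0.11 of Exoc6 was within this range.

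**Figure D4:**
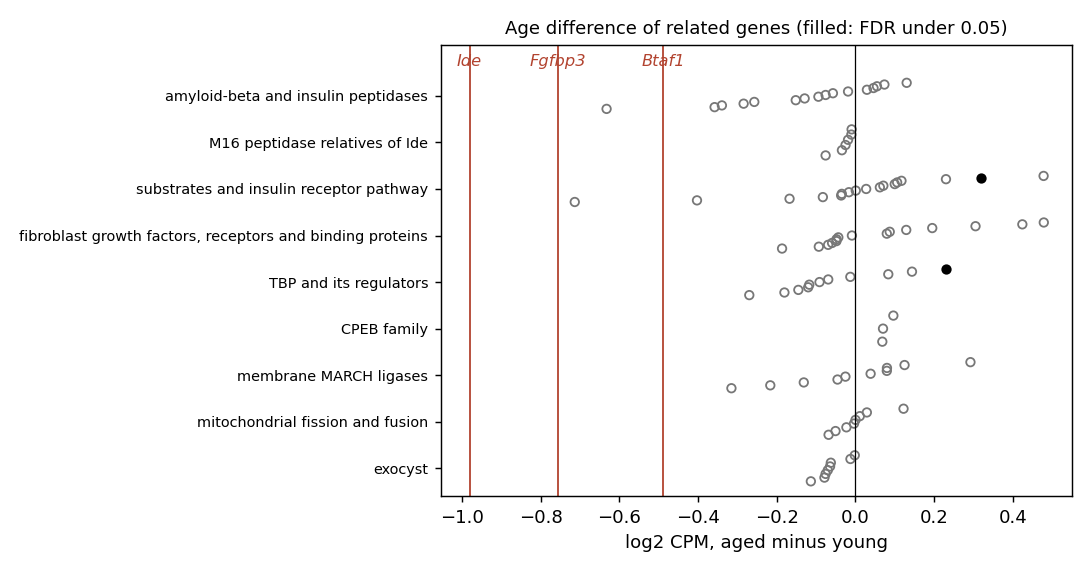
Log2 difference (aged minus young, log2 CPM) of each gene of the 9 lists, with filled points for the 2 genes past FDR 0.05 and red lines at the values of Ide (-0.98), Fgfbp3 (-0.76) and Btaf1 (-0.49). No listed gene is as low as Fgfbp3 or Ide, and the lowest of them, Igf2 (-0.71) and Ace (-0.63), are open points.

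In bulk tissue, fewer cells of a type and less RNA per cell cannot be told apart. All 7 hippocampal neuron markers were measured, the lowest at 18.4 CPM in any library, and their summed level was 908.8 to 928.8 CPM in aged libraries and 958.1 to 1019 CPM in young ones, with 0 of 7 past FDR 0.05. The sum of 5 choroid plexus markers was 2461, 313.5 and 556.2 CPM in the aged libraries, against 2663 to 2731 CPM in the young libraries, with 3 of 5 (Clic6, Kl and Kcnj13) past FDR 0.05 and lower. Aged replicate 1, whose choroid plexus sum was near the young level, had the lowest Ide and Btaf1 of the 6 libraries and the highest Fgfbp3 of the aged libraries. The sum of 4 microglia markers was 223.2 to 228.7 CPM in aged libraries and 187.6 to 192.6 CPM in young ones, with 2 of 4 (Cx3cr1 and Tmem119) past FDR 0.05 and higher. Of the 5 oligodendrocyte markers 1 (Mobp) was higher, of the 5 astrocyte markers 1 (Gfap) was higher, of the 4 meningeal fibroblast markers 1 (Col1a2) was lower, and of the 4 endothelial markers 0 passed. None of these markers was at 0 in any library. The part of the neuron, choroid plexus, glial, endothelial and fibroblast markers in the values of the 6 genes was not tested.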

How the data were processed

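Hippocampal RNA-seq of 3 aged and 3 young mice was analysed from 1 deposited table of 16703 genes. The authors trimmed and aligned reads to mm39 (the processing notes name Trim Galore 0.6.6, STAR 2.7.8a, R 4.05 and edgeR 3.32.1, the extended methods another trimmer), adjusted counts for unwanted variation and deposited log2 CPM values for each library. The other deposited columns hold the authors' mean log2 CPM, log2 fold change, likelihood ratio score, p-value and FDR, and were not used.

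The values came from whole adjusted counts (15238190 to 17548247 per library) with a prior count of 2, from which 1 direction had been removed. limma 3.58.1 (R 4.3.3) was fitted to the log2 CPM of all genes, with age and that direction as terms. The prior variance was trended, and p-values had Benjamini-Hochberg adjustment (FDR 0.05). The fit was also run on simulated counts with the same dispersion for every gene. That run does not measure the error rate in these libraries. CPM are 2 to the power of the deposited values. Count-based tests were not run, since the deposited unit is log2 CPM. P-values measure the spread between these animals, and the adjustment by the authors reduces that spread.

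The members and lists were chosen with earlier results of these data known. Named genes are the 6 members, window and list genes past FDR 0.05, the 2 of smallest p in each list, and the 5 most like Ide and Fgfbp3, and other window genes and Cpeb2 were named after their values were seen. Alternatives were other scalings, filters, pseudocount, variance prior, replicate block, the mean of Aged replicates 2 and 3 as 1 sample, and leaving out each library. A marker of the microglia list is not reported here.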

Additional observations from a re-analysis of the deposited data

How the results depend on the processing

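The log2 differences of Ide, Fgfbp3 and Btaf1 were negative under all 19 alternatives, from -1.16 to -0.88 for Ide, -0.84 to -0.63 for Fgfbp3 and -0.64 to -0.44 for Btaf1. Those of Exoc6 ran from -0.2427 to -0.0601, of Cpeb3 from -0.0356 to 0.1044 and of Marchf5 from -0.0362 to 0.0178. The lowest values of Ide (-1.16), Btaf1 (-0.64), Exoc6 (-0.2427) and Marchf5 (-0.0362) came without Aged replicate 3, where the removed direction correlated with age (r = -0.75). Without the removed direction as a term, over all 6 libraries, 523 genes were called against 331, and 4 listed genes (Marchf4 and Plat added) against 2. With median-centred libraries 1 listed gene passed, as Drap1 was lost (adjusted p = 0.0509 in limma). With a prior variance without trend, limma called 0 genes, 0 at 1.5-fold, 0 members and 0 listed genes. At an unadjusted p under 0.05 in that fit were 1881 of all genes and 6 listed genes. With the mean of Aged replicates 2 and 3 as 1 sample, 244 genes were called, 92 at 1.5-fold. Leaving out 1 library gave 89 (without Young replicate 1) to 300 genes called, 45 to 130 at 1.5-fold against 118, and 1 to 3 listed genes. Combined with dropping the removed direction, an alternative chosen after seeing the data, it gave 160 to 422 genes (160 without Aged replicate 3, 164 without Young replicate 1), 62 to 149 at 1.5-fold (64 and 62 without these) and 1 to 3 listed genes. Window genes called stayed at 0 under every alternative. Replicate numbers did not pair the mice (correlations of 0.11, -0.22 and -0.41 for numbers 1 to 3), and the replicate block called 389 genes, 3 of the members and 3 listed genes. The planned count tests (edgeR, DESeq2) were not run because the deposited unit is log2 CPM. Depth limits Fgfbp3 and the low genes of the window most.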
